A study of Mus musculus with 12 samples.

Results

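Nes, Sox2, Vim, Pax6, Fabp7, Hes1, Sox9, Notch1 and Msi1 are genes by which neural stem cells (NSCs) are commonly recognised. They were taken by name from the gene column of RNA bisulfite sequencing (RNA BS-seq) lists from adult mouse NSCs, and 8 of the 9 were found there, among 14589 genes in all. Sox2 was not named in that column. Its single exon lies inside the long non-coding gene Sox2ot, so cytosines given to Sox2ot at positions of the Sox2 exon were counted as Sox2. All 9 genes were among the 7144 genes with enough listed cytosines in every library to be compared. Their names were fixed as a group of NSC genes, with earlier results of these data known.

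The NSCs were cultured from the subventricular zone, the layer along the lateral ventricles where adult neurogenesis continues, of wild-type male C57BL/6 mice aged 6 to 8 weeks. They were grown on coated plates with EGF and bFGF for 4 days with folic acid at a low (LF, 1.5 μM), middle (MF, 10 μM) or high (HF, 80 μM) concentration, with new medium on day 2. For each concentration there were 2 libraries of total poly(A) RNA and 2 libraries of poly(A) RNA from the polysome fractions of a sucrose gradient, 12 libraries in 6 groups. All groups shared strain, genotype, sex and growth factors, and MF served as the reference. The study describes the 2 replicates of a condition as biological, and the labels do not say whether they came from separate mice or cultures. The p-values for abundance thus measure the spread between these samples, which may in part be technical. A culture can also hold cells at several stages of the lineage, and in bulk RNA fewer cells of a type and less RNA per cell cannot be told apart.

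Folate carries the one-carbon units from which methyl groups for RNA methylation are made, and 5-methylcytosine (m5C) in RNA is read by bisulfite treatment, which converts unmethylated cytosine to uracil and leaves m5C as cytosine. Notch1 is a receptor whose cleaved intracellular part acts with Rbpj to switch on Hes1, a repressor of neuronal differentiation genes. Nes and Vim encode intermediate filament proteins, Fabp7 encodes the brain lipid binding protein of radial glia, Sox2, Sox9 and Pax6 encode transcription factors that keep NSCs in the stem cell state or set their fate, and Msi1 encodes an RNA-binding protein that controls translation of its target mRNAs.

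Each library is a list of cytosines with their coverage (reads) and their unconverted reads. The lists held between 779105 and 2043837 cytosines with summed coverage between 1186213013 and 2857966129, and the median coverage of a cytosine ran from 335 to 920. A cytosine is listed only when 10 or more reads cover it and 1 or more of them is unconverted, so one that is not listed may have been unconverted in no read or may have been hardly covered. The abundance measure was the median coverage of a gene over its listed cytosines with a level under 5%, divided by the median of that value over the 7144 genes of the library. It is called scaled coverage here. It counts reads per position, so that it can be compared between genes of different length. Because listing needs an unconverted read, it is inflated where coverage is low. The unconverted share at these background cytosines was 0.0670 to 0.120% in Vim and 0.362 to 0.742% in Pax6, for which only 32 to 138 cytosines were listed per library.

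The 2 libraries labelled total HF stood apart from the others, and they are called HF-labelled throughout. Over all genes tested, their scaled coverage correlated with that of the LF and MF total libraries at r = 0.712 to 0.748, against 0.895 to 0.907 among those 4. With each other the 2 HF-labelled total libraries correlated at only 0.799, beside 0.785 to 0.852 among the polysome libraries. Of the cytosines that passed the site thresholds given below in both replicates, 47.4% (1502 of 3170) directly followed GGGG on the transcript strand in the HF-labelled total pair, against 0.890 to 1.62% in the other 5 pairs. Among all cytosines covered by 20 or more reads, the share after GGGG was 0.886 to 0.936% in the HF-labelled total libraries and 0.320 to 0.446% elsewhere. Of 12 fibroblast and mural cell markers 7 to 9 were listed (Col1a2, Col3a1, Pdgfrb, Acta2, Tagln and Fbn1 in every library, Dcn, Lum and Rgs5 in none). Their sum of scaled coverage was 27.6 to 28.7 in the HF-labelled total libraries, 13.6 to 15.8 in the LF and MF total libraries and 15.2 to 23.2 in the polysome libraries. That over 9 oligodendrocyte lineage markers, of which 2 or 3 were listed (Olig1 and Cnp in every library, Mog, Mag and Sox10 in none) was 8.12 to 10.1, against 20.0 to 21.3 in the LF and MF total libraries and 10.1 to 19.0 in the polysome libraries. Over 10 neuron markers, of which 3 to 7 were listed (Rbfox3, Snap25 and Syt1 in no library), the sum was 4.48 to 4.50 in the HF-labelled total libraries, 1.75 to 2.92 in the LF and MF total libraries and 2.49 to 3.97 in the polysome libraries. Over 8 microglia markers it was 1.04 to 1.18, 0.218 to 0.499 and 0.159 to 0.965 in the same order. Only 1 or 2 of these were listed (Cx3cr1 in every library, Aif1, Csf1r, P2ry12, Ptprc, Trem2 and C1qa in none). The part of these differences in the results was not tested. Abundance comparisons of the HF-labelled total libraries are given after those of LF and MF. Polysome HF replicate 2 stood apart as well. In it 38353 cytosines had a level above 0.9, against 1102 to 3465 in the other libraries, 4.65% of cytosines lay in no annotated feature (0.977 to 1.47% elsewhere), and the median coverage was 920 (335 to 605 elsewhere). The comparisons of polysome HF over all listed cytosines are therefore also given without this library. That leaves 1 library in its group, so the spread in such a fit comes from the other groups. Over 7 astrocyte markers, of which 3 to 5 were listed (Aldoc, Gja1 and Aldh1l1 in every library, S100b in none), the groups overlapped. The sum was 6.92 to 7.96 in the HF-labelled total libraries, 7.80 to 10.1 in the LF and MF total libraries and 7.22 to 9.57 in the polysome libraries. Over 5 ependymal markers, of which 0 to 2 were listed, it was 0 to 0.983. Markers of endothelial and pluripotent cells were at or near 0 in every library, while all 9 NSC genes were listed in all 12.

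Methylation of the 9 genes was at background at nearly all positions. A cytosine was taken to pass where 20 or more reads covered it, of which 6 or more and 10% or more were unconverted. The paper's further filters, among them that against reads with several unconverted cytosines, were not applied here. Passing thus describes a share of unconverted reads and is not the paper's high-confidence call. Of the cytosines that reached a coverage of 20 in any library, none of 1661 in Nes, none of 454 in Sox2 and none of 584 in Msi1 passed. In Vim 18 of 569 passed in at least 1 library, in Fabp7 6 of 218, in Sox9 4 of 926, in Pax6 3 of 438, in Notch1 3 of 2770 and in Hes1 1 of 403. In Vim (13), Fabp7 (3), Hes1 (1) and Notch1 (1), cytosines passed in both replicates of a group, while the 4 of Sox9 and the 3 of Pax6 passed in a single library each. Per library, 0 to 0.552% of the cytosines of the 9 genes passed, beside 0.0676 to 0.495% of all cytosines.

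The cytosines on which these results turn are shown with 10 bases on each side, read 5′ to 3′ on the transcript strand, with the cytosine itself in capitals. All were at the positions of the GRCm38 (mm10) genome given with them, and features are those of GENCODE vM21.
Vim, single cytosine in the 3′ UTR: ttcaggagcgCaagatagatt
Vim, first cytosine of a run in the 3′ UTR: tagaaagaagCtcagcactta
Vim, cytosine after the run: aaaaggtttaCaaaataatct
Fabp7, middle of 3 cytosines in the 3′ UTR: tgtgttactcCaagcaattca
Hes1, coding sequence: cccaacggggCcttcgctcac
Notch1, coding sequence: gcaatgggggCacctgtgacc
The windows lie at chr2:13582612-13582632, chr2:13582638-13582658 and chr2:13582684-13582704 for Vim (plus strand, exon 9 of 9), at chr10:57788298-57788318 for Fabp7 (plus strand, exon 4 of 4), at chr16:30067285-30067305 for Hes1 (plus strand, exon 4 of 4) and at chr2:26485235-26485255 for Notch1 (minus strand, exon 3 of 34). The cytosines of Hes1 and Notch1 each follow at least 4 G.

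Vim held the only cytosines of the 9 genes that passed in both replicates outside the HF-labelled total pair. In a run of 25 bases, chr2:13582648-13582672, all 11 cytosines were listed in 9 of the 12 libraries, with levels between 5.13 and 15.4% and coverage between 40 and 239. Over the same 9 libraries the median coverage of Vim was 22362 to 37072 reads, so that the run was covered by far fewer reads than the rest of the gene. None of the 11 was listed at a coverage of 20 in the 2 HF-labelled total libraries or in polysome HF replicate 2. At the first cytosine of the run the level was 13.8% (95% Wilson interval 7.46 to 24.3) and 7.37% in total LF, 14.0% and 12.9% in total MF, 14.1% and 11.6% in polysome LF, 10.1% and 15.1% in polysome MF, and 13.3% in polysome HF replicate 1. These levels overlapped between total and polysome RNA and between LF and MF. In total LF replicate 1 the 8 of the run's cytosines that passed carried 6 to 10 unconverted reads each, out of 60 to 66. The lists give counts per position, so whether the same reads were unconverted at all of them was not tested. The paper dropped reads with several unconverted cytosines as incompletely converted. That filter was not applied here, so methylation and incomplete conversion cannot be told apart in the run.

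The single Vim cytosine upstream of the run, at position 13582622, was listed in all 12 libraries and had the highest mean level, 8.18%, of the 385 Vim cytosines that 20 or more reads covered in every library. Its level was 23.5% (12.4 to 40.0, 8 of 34 reads) and 27.3% (17.3 to 40.2, 15 of 55 reads) in the HF-labelled total libraries. It lay between 3.33 and 5.81% in the 4 LF and MF total libraries and between 1.65 and 6.53% in the 6 polysome libraries. The HF-labelled total values were above all others, at the lowest coverage. The cytosine is called single only because it lay outside the run. Close upstream, the cytosine at 13582620 also passed in HF-labelled total replicate 2, at 17.6% (15 of 85 reads). Both cytosines held 15 unconverted reads in that library, and whether these were the same reads was not tested. A further Vim cytosine at 13582694 was listed at a coverage of 20 or more in 3 polysome libraries, at 35.6% in LF replicate 2, 30.0% and 44.0% in MF, on 20 to 45 reads.

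In Fabp7, Hes1 and Notch1, cytosines passed in both replicates of the HF-labelled total pair only. The 3 Fabp7 cytosines, within chr10:57788307-57788312, had levels of 14.9 to 16.3% and 13.6 to 14.0% there, on 43 to 49 reads, and stayed between 0.0948 and 1.52% in the other 10 libraries, on 405 to 2110 reads. In HF-labelled total replicate 1, 6 Fabp7 cytosines between 57788292 and 57788317 passed, with 7 or 8 unconverted reads each out of 46 to 49. In replicate 2 the 3 carried 6 unconverted reads each, the lowest number that can pass. Whether the same reads were unconverted at all of them was not tested. The Hes1 cytosine was at 14.7% (11.95 to 17.99, 78 of 530 reads) and 11.1% (8.31 to 14.6, 43 of 389 reads) and at 0.0972 to 0.629% in the 6 other libraries that listed it. The Notch1 cytosine was at 21.7% (16.9 to 27.3, 52 of 240 reads) and 23.5% (17.9 to 30.1, 43 of 183 reads), and elsewhere it was listed in total LF replicate 2 alone, at 0.330% of 303 reads. As these cytosines are shown because they passed in that pair, their distance from the other libraries is a description and no test. Intervals cover counting error only, as PCR copies of a molecule were counted as separate reads.

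**Figure D1:**
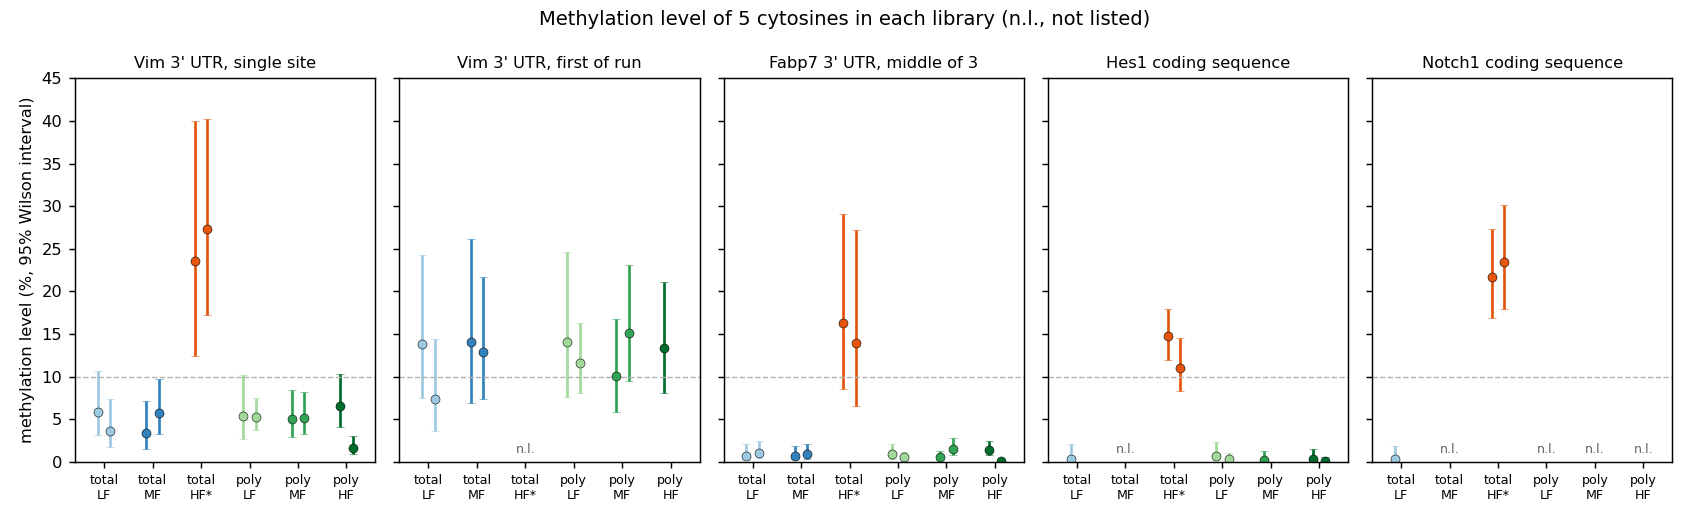
Methylation level (%, vertical axis) of 5 cytosines in each library (horizontal axis, the 6 groups with 1 point per replicate; HF* marks the libraries labelled total HF), with bars for the 95% Wilson interval and a dashed line at 10%; n.l. marks a group in which the cytosine was not listed. The HF-labelled total points lie above all others at 4 of the cytosines, while the first cytosine of the Vim run lay between 7.37 and 15.1% in 9 libraries of total and polysome RNA.

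Levels were compared between groups by Fisher's exact test (two-sided, on reads pooled over replicates, adjusted over all sites of a comparison). Its p-values hold no spread between replicates and cover the counting of reads only. A site entered a comparison by passing in both replicates of at least 1 of its groups, which fixes the direction where it passed in 1 group only, and the values of such sites are given without a test. Of the Vim run, 4 cytosines passed in both total MF and polysome MF and in polysome LF as well. Between polysome and total RNA at MF none of these 4 passed the test. The first cytosine of the run was at 12.4% in polysome and 13.3% in total RNA there (adjusted p = 0.923 by Fisher's exact test). Between polysome LF and MF none of the 4 passed either, with 12.1% and 12.4% at that first cytosine. The other 7 of the 11 Vim cytosines in that comparison had entered through polysome LF alone. The share of all sites called, 53.8% between fractions at MF and 9.68% between polysome LF and MF, includes sites passing in 1 group only. The 4 were kept for passing in both groups, so these shares are no background for them. The 4 lie close together, from 13582648 to 13582655, and whether the same reads were unconverted at all of them was not tested. The test thus cannot decide whether their levels differ. Between polysome and total RNA at LF all 11 entered through polysome LF alone, with 12.1% in polysome and 10.0% in total RNA at the first cytosine. In total RNA at LF against MF all 5 entered through total MF alone, with 10.0% against 13.3% at that cytosine. No cytosine of the 9 genes met the criteria in polysome HF against MF (background 8.82%). The Vim single cytosine and the cytosines of Fabp7 and Hes1 had passed in the HF-labelled total pair alone. In HF-labelled total RNA against MF the pooled level was 25.8% against 4.60% at the Vim cytosine and 14.3 to 15.2% against 0.445 to 0.803% at the 3 of Fabp7, in a comparison where 94.2% of all sites were called. In polysome against HF-labelled total RNA it was 3.06% against 25.8% at the Vim cytosine, 0.415 to 0.449% against 14.3 to 15.2% in Fabp7 and 0.144% against 13.2% in Hes1, where 65.7% were called. The Notch1 and Hes1 cytosines were not listed in total MF.

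The levels of the other genes stayed low where they could be followed. Among cytosines that 20 or more reads covered in each of the 12 libraries, the highest mean level was 0.788% in Nes (46 cytosines), 0.752% in Sox2 (23), 0.175% in Hes1 (14) and 1.00% in Sox9 (a single cytosine, at 0.177 to 2.40%). Neither Pax6 nor Msi1 had a cytosine covered to this depth in every library, so that no level shared by all libraries can be given for them.

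The abundance measure ordered the genes in the LF and MF total libraries with Vim far ahead, followed by Fabp7. In those 4 libraries Vim had 60.6 to 66.3 times the coverage of the median gene and Fabp7 15.4 to 27.96 times. Sox2 (5.13 to 5.88), Hes1 (5.13 to 5.36) and Nes (4.89 to 5.27) came next and their ranges overlapped. Notch1 (3.56 to 4.41) and Sox9 (2.24 to 2.45) followed, each apart from its neighbours. Msi1 (0.272 to 0.537) and Pax6 (0.276 to 0.417) were lowest and overlapped. Mean Vim coverage stood at percentile 99.97 of all genes tested and Pax6 at 10.5. Between 12.9 and 45.7% of the background cytosines of Vim had a coverage above 40000, close to the highest value in any list (48532 to 49682), so a ceiling on coverage limits how large a difference in Vim could appear.

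**Figure D2:**
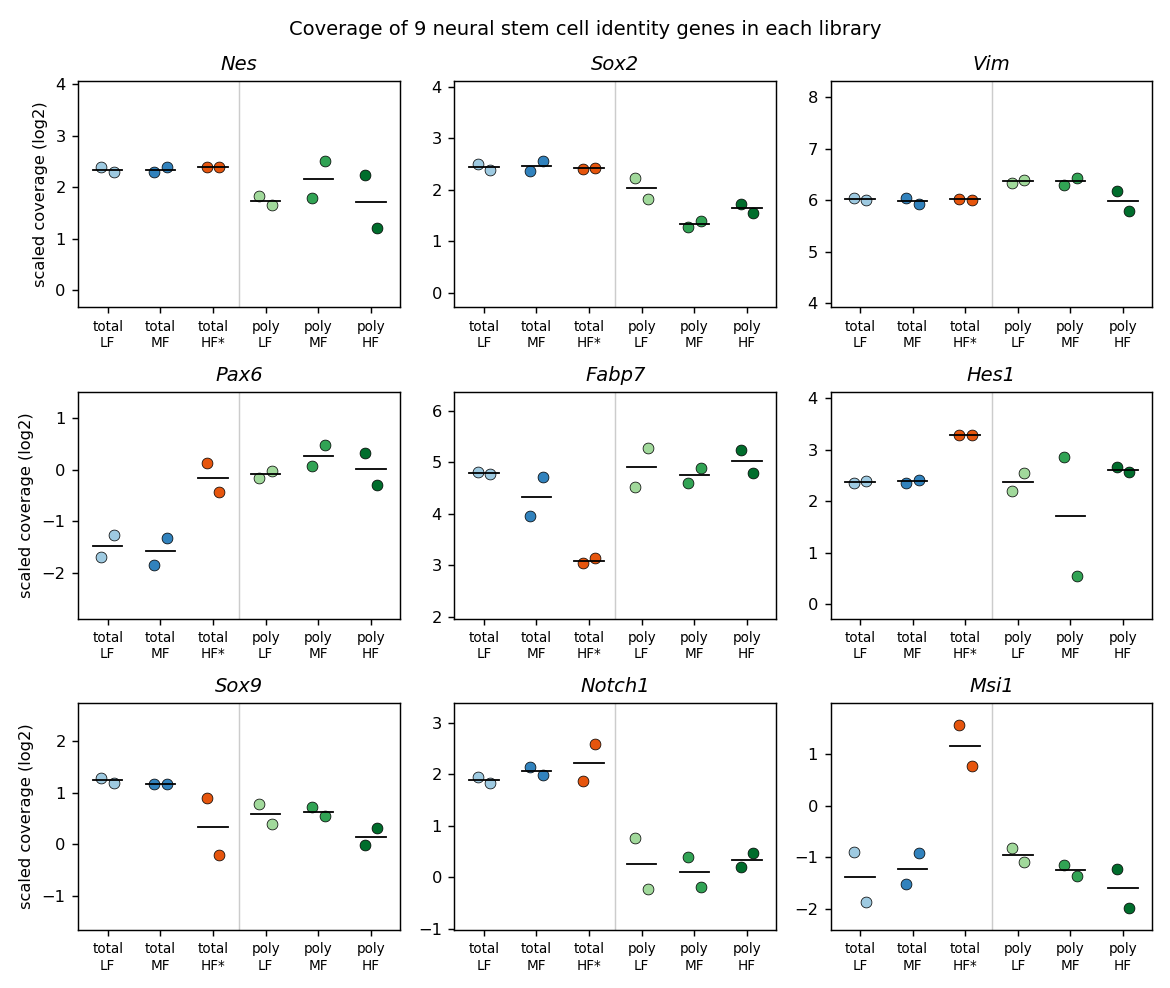
Scaled coverage (log2 of the multiple of the median gene, vertical axis, the same span in each panel) of the 9 genes in the 12 libraries, by group (horizontal axis; poly, polysome RNA; HF*, libraries labelled total HF), with 1 point per library and a bar at the mean of 2. Notch1 lies lower in all 6 polysome libraries (0.853 to 1.70 times the median gene) than in all 6 total libraries (3.56 to 6.03 times), and Pax6 lies higher in polysome RNA than in the LF and MF total libraries.

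Polysome RNA was set against total RNA to ask which mRNAs lie in the pooled polysome fractions more or less than their abundance would give. The paper treated the cells with cycloheximide and pooled only the heavier fractions, so mRNAs on few ribosomes were left out. Over LF and MF together, 4 of the 9 genes passed in limma (adjusted p under 0.05 over 7144 genes), with Notch1 and Sox2 lower and Pax6 higher in polysome RNA, and Vim higher on a measure limited by the ceiling on its coverage. Over all genes 29.9% passed. Polysome comparisons at LF, MF and HF share no library with each other, but each shares its total libraries with the folate comparisons of total RNA.

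Notch1 (chr2:26457903-26516663, minus strand) carried the clearest difference. Its scaled coverage was 3.86 and 3.56 in total LF and 4.41 and 3.98 in total MF, against 1.70 and 0.853 in polysome LF and 1.32 and 0.873 in polysome MF. The groups did not overlap. Notch1 was 3.47-fold lower in polysome RNA (log2 difference -1.79 ± 0.27 SE, adjusted p = 0.00146 by limma) over LF and MF, and it was lower at LF (-1.62 ± 0.39, adjusted p = 0.0244) and at MF (-1.97 ± 0.39, adjusted p = 0.0133). The pooled difference passed in all 23 alternatives in which Notch1 could be fitted, at -2.04 to -1.23. The calls at LF and at MF were lost without either total library of that concentration, and without replicate 2 of its polysome libraries (-1.13 at LF, -1.67 at MF). Beside these counts of members, 13.3% of all genes passed at LF and 12.6% at MF.

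Hes1 (chr16:30064384-30067796), the target of Notch signalling, showed no difference that passed over all its listed cytosines. Its scaled coverage was 5.13 and 5.30 in total LF, 5.14 and 5.36 in total MF, 4.60 and 5.85 in polysome LF and 7.30 and 1.46 in polysome MF. The last value, of replicate 2, lay far below all others of the gene. At MF the log2 difference was -0.68 ± 0.56 with both replicates, 0.48 without replicate 2 of polysome MF and -1.84 without replicate 1, where it passed. Over 48 cytosines listed in all 4 MF libraries, an alternative chosen after the data had been seen, replicate 2 was not low (log2 scaled coverage of 2.41, beside 2.24 in replicate 1), and Hes1 was higher in polysome than in total RNA (0.41 ± 0.10, adjusted p = 0.00786), against the direction over all listed cytosines. For both concentrations it was -0.34 ± 0.39 (adjusted p = 0.539).

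Sox2 (chr3:34650405-34652461) was measured at 5.70 and 5.22 in total LF and 5.13 and 5.88 in total MF, and at 4.71 and 3.55 in polysome LF and 2.42 and 2.62 in polysome MF. All 4 polysome values were below all 4 total values. Sox2 was 1.71-fold lower in polysome RNA over LF and MF (-0.77 ± 0.16, adjusted p = 0.00595 by limma). Under the alternatives this difference ran from -1.12 to -0.02. Over cytosines listed in every library compared it did not pass (-0.09 ± 0.13, adjusted p = 0.557). Over all its listed cytosines Sox2 passed at MF (-1.13 ± 0.22, adjusted p = 0.0136) and not at LF (-0.41 ± 0.22, adjusted p = 0.242). The difference between the 2 concentrations did not pass (0.71 ± 0.32, adjusted p = 0.999). The call at MF was lost without either total library or without replicate 1 of the polysome libraries, at -1.23 to -1.03. Over the other alternatives the difference at MF ran from -1.43 to -0.04, so its size was not stable. Sox2ot lies on the same strand, so its reads over the exon cannot be told apart from those of Sox2. In polysome LF and MF, the libraries of the pooled comparison, the exon was covered by a median of 780.5 to 1610.5 reads and the listed rest of Sox2ot by 89.5 to 300. In total RNA the exon was covered by a median of 2071 to 3591 reads and the listed rest of Sox2ot by 187 to 831, but in polysome HF by 1021 and 2005 reads against 1013 and 1741.

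Pax6 (chr2:105668900-105697364) went the other way. It stood at 0.311 and 0.417 in total LF and 0.276 and 0.401 in total MF, and at 0.899 and 0.989 in polysome LF and 1.05 and 1.39 in polysome MF, with no overlap. Pax6 was 3.08-fold higher in polysome RNA over LF and MF (1.62 ± 0.29, adjusted p = 0.00290). It was 2.62-fold higher at LF (adjusted p = 0.0494) and 3.63-fold higher at MF (adjusted p = 0.0189), and the pooled difference passed in all 22 alternatives in which it could be fitted, at 0.92 to 1.76. The call at LF held in 2 of the 12 fits that left out 1 library, and was also lost without both HF-labelled libraries, with a replicate block (adjusted p = 0.0677 by limma) and with background levels under 0.1 (adjusted p = 0.0827), while that at MF was lost without any 1 of the 4 MF libraries, at 1.59 to 2.13. No Pax6 cytosine was listed as background in all 8 libraries, so the values rest on partly different positions of the transcript in each library.

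Sox9 (chr11:112782224-112787760) ran from 2.24 to 2.45 in the LF and MF total libraries and from 1.32 to 1.73 in the polysome libraries. The difference over LF and MF (-0.59 ± 0.26, adjusted p = 0.118) did not pass.

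Of the filament genes, Vim (chr2:13573927-13582826) was at 60.6 to 66.3 in the 4 total libraries and at 80.7, 84.7, 78.7 and 86.9 in the polysome libraries. The log2 difference passed (0.36 ± 0.11, adjusted p = 0.0268 by limma) with no overlap, but 44.6 to 45.7% of the background cytosines of Vim were above a coverage of 40000 in these total libraries and 17.6 to 29.1% in the polysome libraries. The median Vim coverage was 35382 to 37072 reads in the total and 25414 to 34063 reads in the polysome libraries. No fold is given, and the part of the ceiling in the difference was not tested. Without any 1 of the 2 total LF, 2 total MF or 2 polysome MF libraries the call was lost, at 0.33 to 0.40. Nes (chr3:87971078-87980451) was at 4.89 to 5.27 in the total libraries and at 3.54, 3.15, 3.47 and 5.72 in the polysome libraries, where polysome MF replicate 2 was above every total value. Its difference was -0.40 ± 0.24 (adjusted p = 0.243) with the median over its listed cytosines. It passed over the same cytosines with mean coverage (-1.21, adjusted p = 3.55e-05 by limma, background 52.6%), with the 75th percentile (-1.24, adjusted p = 3.49e-04, background 47.3%) and with quantile normalization (-0.76, adjusted p = 0.0291, background 30.9%). With mean coverage and with the 75th percentile Nes also passed at LF alone (-1.29 and -1.23) and at MF alone (-1.14 and -1.25), so its lower value in polysome RNA depends on how its coverage is summarised and normalized.

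Fabp7 (chr10:57784881-57788450) overlapped between the fractions, at 15.4 to 27.96 in total and 22.9 to 39.0 in polysome RNA at LF and MF (0.26 ± 0.21, adjusted p = 0.381). Msi1 (chr5:115429599-115455698) overlapped as well, at 0.272 to 0.537 in total and 0.390 to 0.567 in polysome RNA (0.20 ± 0.35, adjusted p = 0.692).

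How far these values depend on which cytosines were listed was asked with the same alternative, in which each gene was compared only over background cytosines listed in every library of the comparison. For LF and MF together, 7 of the 9 genes kept enough such cytosines, and Pax6 and Msi1 kept none. Of those 7, 4 passed, where 76.3% of the 1687 genes left passed. The lower Notch1 value in polysome RNA was found here too (-1.31 ± 0.17 over 15 cytosines, adjusted p = 1.05e-04). Nes, which over all its listed cytosines had passed with mean coverage, the 75th percentile and, with the median, only after quantile normalization, was 3.36-fold lower in polysome RNA over 94 shared cytosines (-1.75 ± 0.15, adjusted p = 5.96e-06), and Sox9 2.15-fold lower over 8 (-1.11 ± 0.14, adjusted p = 7.58e-05). Fabp7 was 1.40-fold lower (-0.49 ± 0.09, adjusted p = 0.00127). Sox2 (-0.09 ± 0.13, adjusted p = 0.557), Vim (-0.074 ± 0.10, adjusted p = 0.512) and Hes1 (0.14 ± 0.08, adjusted p = 0.151) did not pass. The pooled calls of Sox2 and Vim were thus not found over cytosines listed in all 8 libraries. At single concentrations 3 of the 7 genes passed at LF (background 58.4%) and 6 at MF (74.4%), both times with Nes, Sox9 and Notch1 lower in polysome RNA. The Notch1 difference was smaller there than over all listed cytosines, at -1.04 ± 0.34 (2.06-fold, against 3.08-fold) at LF and -0.76 ± 0.10 (1.69-fold, against 3.90-fold) at MF. Sox2 was lower in polysome RNA at MF (-0.41 ± 0.13, adjusted p = 0.0295 by limma). None of the 7 passed in LF against MF or within polysome RNA.

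**Figure D3:**
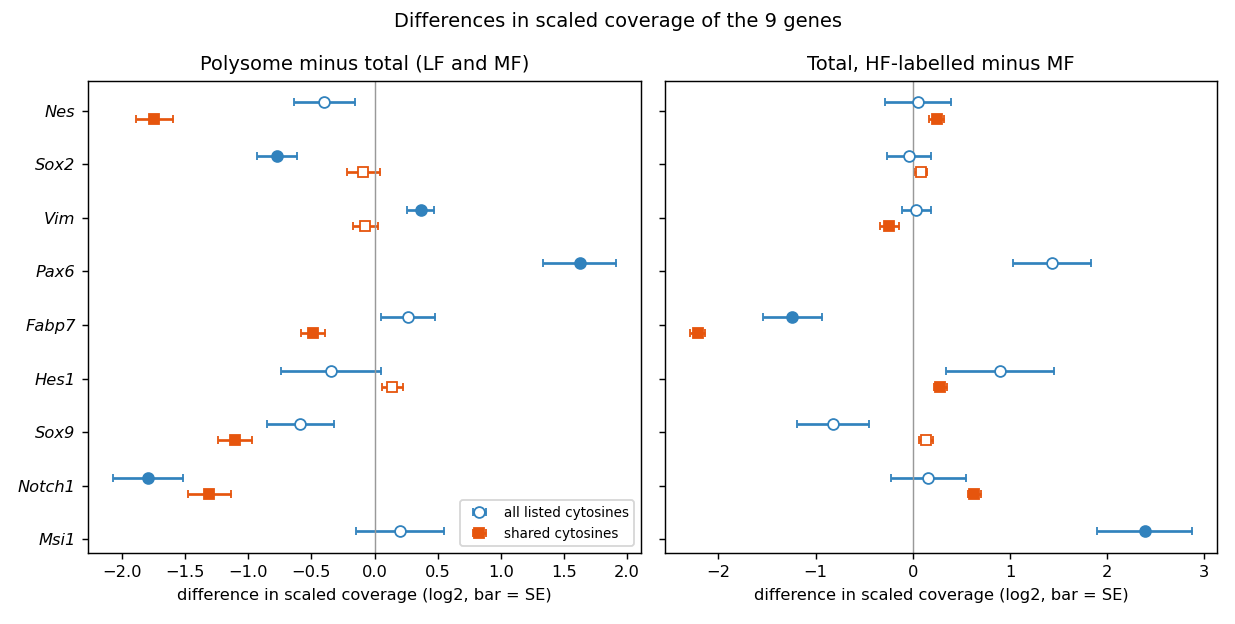
Log2 differences in scaled coverage (horizontal axis, bars for the SE) of the 9 genes (vertical axis), for polysome minus total RNA over LF and MF (left) and total RNA labelled HF minus MF (right), over all listed cytosines (circles) and over shared cytosines (squares, 7 genes); filled symbols passed in limma. Notch1 is lower in polysome RNA by both measures (-1.79 and -1.31), whereas of the 2 measures plotted Nes passes over shared cytosines alone (-1.75).

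The position along the transcript was then described, by dividing each spliced transcript into 5 equal parts from the 5′ end to the 3′ end. In Nes, scaled coverage in polysome RNA differed from total RNA by -1.68, -0.97 and -1.82 (log2) in the first 3 parts at LF and by -1.63, -1.99 and -1.73 at MF, but by 0.14 and -0.25 in the last 2 parts at LF and by 0.70 and 0.73 at MF. The 5′ portion of Nes was thus covered less in polysome RNA, and the 3′ portion was not lower to that extent. In Notch1 the difference ran from -2.52 in the first part to -0.35 in the last at LF, and from -2.98 to -0.83 at MF. Vim differed by -2.40 and -2.24 in its first part by 0.56 and 0.86 in part 4 and by -0.24 and -0.26 in its last part. Sox9 differed by 2.32 and 2.71 in its last part, and by -0.61 and -0.83 in its first.

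This slope was shared by most genes. The polysome minus total difference of the last part less that of the first had a median of 0.84 over 2316 genes at LF, 1.03 over 2324 at MF and 1.08 over 2253 at HF, and was above 0 in 72.2, 73.6 and 74.5% of them. The slope of Nes was 1.44 at LF (percentile 66.1 of all genes) and 2.36 at MF (percentile 81.6), that of Notch1 2.17 and 2.15 (percentiles 82.8 and 77.8), that of Vim 2.16 and 1.99 (82.6 and 73.6) that of Sox9 2.93 and 3.53 (93.5 and 95.9) and that of Fabp7 0.60 and 2.19 (42.7 and 78.5). The other 4 genes had too few listed cytosines in their end parts to give a slope. These are descriptions without a test. The part of this slope in the gene values above was not tested.

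**Figure D4:**
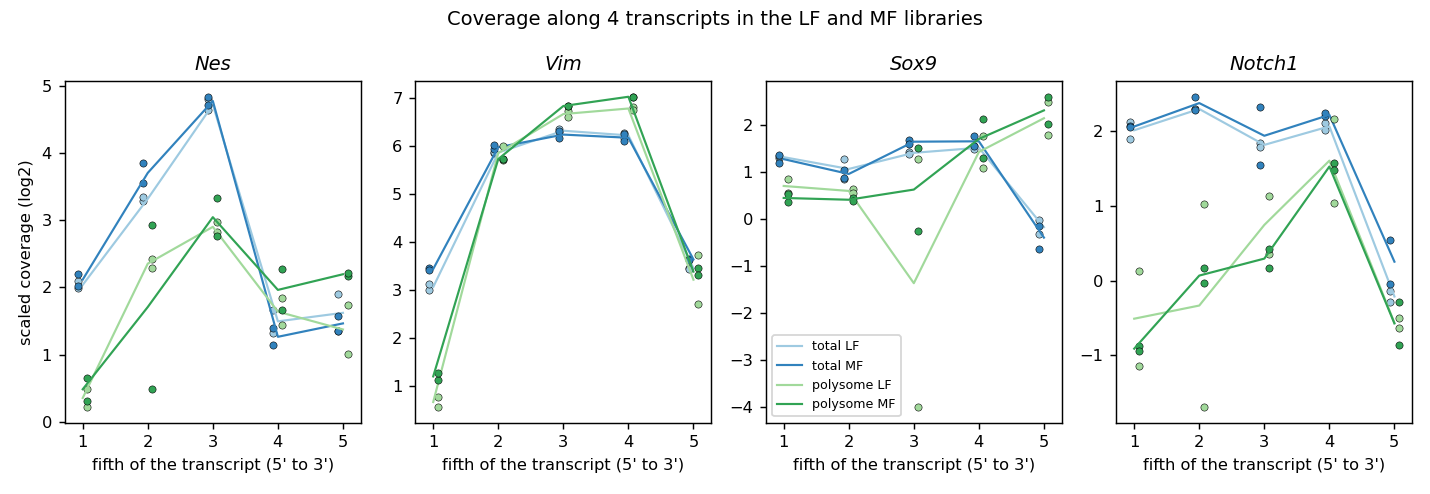
Scaled coverage (log2, vertical axis) along the spliced transcripts of Nes, Vim, Sox9 and Notch1 in 5 equal parts from the 5′ to the 3′ end (horizontal axis), with 1 point per library and lines through group means, for total and polysome RNA at LF and MF. Polysome RNA lies below total RNA in the first part of all 4 genes (log2 differences of -2.98 to -0.61) and above it in the last part of Sox9.

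The folate comparisons asked whether the NSC genes moved with the supply of methyl donors. In total RNA at LF against MF, none of the 9 genes passed in limma, nor did any of all 7144 (background 0%), while 136 genes (1.9%) and 0 of the 9 had an unadjusted p under 0.05. The differences of Nes (0.00 ± 0.34), Sox2 (-0.01 ± 0.22), Vim (0.04 ± 0.15) and Hes1 (-0.01 ± 0.56) were the smallest, and that of Fabp7 the largest (0.46 ± 0.30), where total MF replicate 1 (15.4) stood below replicate 2 (26.2) and both LF values (27.96 and 27.3). Over shared cytosines Fabp7 differed by -0.04 ± 0.07. In polysome RNA at LF against MF none of the 9 passed (background 0.168%). Sox2 had the lowest p of the 9 there, at 4.71 and 3.55 in LF and 2.42 and 2.62 in MF (0.70 ± 0.22, adjusted p = 0.409), and differed by 0.01 ± 0.20 over shared cytosines. In polysome RNA at HF against MF none of the 9 passed either (background 0.084%), with Vim, at 72.4 and 55.6 in HF and 78.7 and 86.9 in MF, at -0.38 ± 0.15 (adjusted p = 0.570), and none passed without polysome HF replicate 2 (Vim at -0.19). An unadjusted p under 0.05 was reached by 1 of the 9 at LF, beside 8.34% of all genes, and by 1 at HF, beside 8.1%. Over all listed cytosines, no difference between fractions was found to differ between LF and MF in limma (0 of 9, background 0.014%), and an unadjusted p under 0.05 was reached by 1 of the 9 (Sox2), beside 4.09% of all genes. With 2 libraries a group the standard errors were 0.15 to 0.56 within a fraction and 0.21 to 0.79 for the difference between fractions.

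In the libraries labelled total HF, 2 of the 9 genes differed from total MF, where 6.38% of all genes did. Msi1 was at 2.97 and 1.69 there, against 0.347 and 0.529 in total MF and 0.251 to 0.567 in the other 8 libraries. It was 5.23-fold higher than in MF (2.39 ± 0.49, adjusted p = 0.0238), and 188 and 297 of its background cytosines were listed there against 27 to 143 elsewhere. Fabp7 was at 8.21 and 8.81, below its value in each of the other 10 libraries (15.4 to 39.0), and 2.36-fold lower than in MF (-1.24 ± 0.30, adjusted p = 0.0414). Leaving out 1 library at a time, the Msi1 call was lost without total MF replicate 1, total MF replicate 2 or HF-labelled total replicate 1, at 1.98 to 2.69. The Fabp7 call held in 4 of 12 such fits, those without a polysome LF or polysome HF library, and the value ran from -1.62 to -0.86. Both calls were lost with background levels under 0.1 (adjusted p = 0.250 for Msi1 and 0.0612 for Fabp7, by limma), and that of Fabp7 without the variance trend (adjusted p = 0.0899). Hes1 was at 9.78 and 9.81, above all other libraries (0.90 ± 0.56, adjusted p = 0.382). This SE comes from all 12 libraries. The SD of log2 scaled coverage of Hes1 was 0.004 in HF-labelled total and 0.04 in total MF, but 1.64 in polysome MF. Under the alternatives the Hes1 difference ran from 0.14 to 0.97 and passed in 4 of 23. Pax6 was at 1.09 and 0.740 (1.43 ± 0.41, adjusted p = 0.0689), and passed with mean coverage (0.95), the 75th percentile (1.15) or quantile normalization (1.60). Nes (5.27 and 5.28), Sox2 (5.31 and 5.37) and Vim (65.5 and 64.5) differed from MF by 0.06, -0.04 and 0.04 (log2).

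Over shared cytosines, 5 of the 7 genes tested differed between HF-labelled total and MF, beside 80.8% of the 4333 genes. Fabp7 was 4.64-fold lower (-2.21 ± 0.08 over 101 cytosines, adjusted p = 3.94e-07). Notch1 (0.63 ± 0.07), Hes1 (0.28 ± 0.07) and Nes (0.25 ± 0.08) were higher and Vim (-0.24 ± 0.10) was lower. The direction of Nes turned with the cytosines and the summary used, as it was lower in HF-labelled total RNA over cytosines shared by all 12 libraries (-0.94, adjusted p = 0.00191 by limma) and with mean coverage over all its listed cytosines (-0.67, adjusted p = 0.0477). Folate and whatever else sets these 2 libraries apart cannot be told apart.

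For the same reason the fraction comparison at HF stands on its own. There 4 of the 9 genes passed, beside 13% of all genes. Fabp7 was 3.803-fold higher in polysome RNA (37.6 and 27.9 against 8.21 and 8.81, log2 difference 1.93 ± 0.30, adjusted p = 0.00567), Msi1 was 6.84-fold lower (0.427 and 0.251 against 2.97 and 1.69, -2.77 ± 0.49, adjusted p = 0.00856), and Notch1 (-1.89 ± 0.39, adjusted p = 0.0145) and Sox2 (-0.77 ± 0.22, adjusted p = 0.0490) were lower. Without polysome HF replicate 2, which leaves 1 polysome HF library, the differences were 2.14 for Fabp7, -2.39 for Msi1 and -2.03 for Notch1. The Notch1 call was lost without HF-labelled total replicate 2 (-1.53) or polysome HF replicate 1 (-1.75). The Fabp7 call held in all 23 alternatives, that of Msi1 in 20 of 21 and that of Sox2 in 7 of 23, being lost without any 1 of 10 of the 12 libraries. The polysome HF values of Fabp7 lay within the range of polysome LF and MF (22.9 to 39.0), and those of Msi1 within it or below (0.390 to 0.567), whereas the HF-labelled total values of both genes lay outside the range of total LF and MF.

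Nes did not pass at HF with the median (-0.68, adjusted p = 0.212 by limma) and passed with mean coverage (-0.74) and the 75th percentile (-0.78). Over shared cytosines 5 of the 7 genes passed in polysome against HF-labelled total RNA (background 72%), with Fabp7 higher and Nes, Sox9, Notch1 and Sox2 lower in polysome RNA (Sox2 -0.43 ± 0.14, adjusted p = 0.0275 by limma). Over all listed cytosines no difference between fractions was found to differ between HF and MF (0 of 9, background 0.798%), with or without polysome HF replicate 2, while an unadjusted p under 0.05 was reached by 3 of the 9, beside 18.5% of all genes. Msi1 was at -2.74 ± 0.69 (adjusted p = 0.0846), Fabp7 at 1.51 ± 0.43 (adjusted p = 0.102) and Pax6 at -1.69 ± 0.57 (adjusted p = 0.156). In place of the median, Fabp7 and Msi1 passed with mean coverage (2.02 and -2.43, background 14.7%) and with the 75th percentile (2.41 and -2.59, background 12%). Over shared cytosines, of 6 genes that could be fitted, Fabp7 (2.63 ± 0.17) and Hes1 (-0.75 ± 0.16) passed (background 60.9%).

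Other genes of the pathways were read from lists. Of 40 further genes of the Notch pathway, 25 were tested. In polysome against total RNA over LF and MF, 4 of them were higher and 8 lower, with a median log2 difference of -0.37 beside 0.03 over all genes, of which 1206 were higher and 928 lower. Adam10, the protease that makes the first activating cut in Notch receptors (-2.63 ± 0.37, adjusted p = 9.65e-04), and Spen, a repressor that binds Rbpj (-2.24 ± 0.30, adjusted p = 7.94e-04), were lowest. Dll3, a Notch ligand that acts within the cell (1.59 ± 0.25, adjusted p = 0.00177), and Hes6, a Hes family member that opposes Hes1 (1.35 ± 0.17, adjusted p = 5.69e-04), were highest. In HF-labelled total RNA against MF, 2 of the 25 passed, a share near the 6.38% of all genes, and both were higher, Dll3 (1.52 ± 0.36) and the Notch target Hes5 (1.24 ± 0.28). In the other folate comparisons none of the 25 passed.

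Of 46 further genes of NSCs, 34 were tested. Over LF and MF, 4 were higher and 11 lower in polysome RNA, 15 of 34 beside 29.9% of all genes, with a median of -0.45 beside 0.03. Ptprz1, a receptor phosphatase of radial glia (-2.197 ± 0.38), and Egfr, the receptor for the EGF in the medium (-1.92 ± 0.25), were lowest. Nr2e1, the orphan nuclear receptor known as Tlx (1.60 ± 0.32), and Fgfr2, a receptor for fibroblast growth factors (1.81 ± 0.29), were highest. In HF-labelled total RNA against MF 4 of the 34 passed, beside 6.38% of all genes. Fgfr3 was higher (1.72 ± 0.44) and Slc1a3, the glial glutamate transporter (-1.23 ± 0.30), Cd9 (-1.11 ± 0.21) and Olig2 (-1.02 ± 0.24) were lower. Of 15 further intermediate filament genes, 3 were tested, and the lamin genes Lmna (1.06 ± 0.15) and Lmnb1 (-0.997 ± 0.20) passed in opposite directions over LF and MF, where 29.9% of all genes passed.

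Across the 12 libraries the genes whose scaled coverage was most like the mean of the 9 were Wdtc1 (Pearson's r = 0.934), Fam117a (0.920) and Plekhg5 (0.913). Among the 9 themselves, Sox2 and Notch1 were most alike (r = 0.860) and Fabp7 and Msi1 most opposed (r = -0.802). The points share their libraries and include the 2 labelled total HF, and these values are descriptions only.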

How the data were processed

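RNA BS-seq of total and polysome poly(A) RNA was used, 12 libraries in 6 groups named by the labels. The authors trimmed reads with fastp, aligned them to mm10 with meRanGh and called cytosines with meRanCall. The deposited counts are coverage and unconverted reads per cytosine, not normalized, and the deposited level is the fraction of unconverted reads. The lists come before the authors' later filters. These removed reads with several unconverted cytosines, sites with a low ratio of signal to noise and sites in regions predicted to resist conversion.

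Cytosines called as variants were left out. Genes needed at least 10 background cytosines (level under 0.05) in each library. limma 3.58.1 (R 4.3.3, eBayes with trend, 6 group means, Benjamini-Hochberg over 7144 genes) tested log2 scaled coverage in 10 comparisons. Levels were tested by Fisher's exact test (scipy 1.17.1) over 7 comparisons at sites that passed in both replicates of a group and were covered by 20 or more reads in the 4 libraries compared, and by limma on log2 odds (pseudocount 0.5). Code was tested on simulated data. Sequences and features came from GRCm38 and GENCODE vM21.

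The 9 genes and the lists were chosen with earlier results of these data known. Each of the 9 is named, and of each list the 2 highest and 2 lowest passing genes. Alternatives covered the cytosine minimum, summary, level, coverage, normalization, variance trend, replicate block, each library left out and, after seeing the data, shared cytosines and the position of Sox2. Same-numbered replicates did not deviate together (r -0.04 to 0.04 over 15 pairs of groups).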

Additional observations from a re-analysis of the deposited data

How the results depend on the processing

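Over 2072 values of the 9 genes under alternative settings, 1942 kept both direction and side of the threshold or passed in neither, 74 lost and 43 gained a call, and 13 took the opposite sign with a call in at least 1 of the compared fits. Counts of the 9 genes passing follow, with the share of all genes in brackets where it was worked out. In polysome against total at 1.5 μM 2 passed as reported (13.3%). It was 1 with background levels under 0.1, 1 with a replicate block and 1 without the libraries labelled total HF. The replicate block moved no other count of passing genes or sites by more than 1.5 times. At 10 μM 3 passed (12.6%), and 6 of 7 tested over cytosines shared by the libraries compared (74.4%). At 80 μM 4 passed (13%). Over 1.5 and 10 μM 4 passed (29.9%), and 2 of 5 tested over cytosines shared by all 12 libraries. In total 80 against 10 μM 2 passed (6.38%), and 5 of 7 tested over cytosines shared by the libraries compared (80.8%). There 4 passed with mean coverage, 0 with background levels under 0.1 and 1 without the variance trend. Calls were also lost in each of these comparisons leaving out single libraries. For the fraction difference at 80 against 10 μM 0 passed (0.798%). It was 2 with mean coverage (14.7%) and 2 with the 75th percentile (12%). Over cytosines shared by the libraries compared it was 2 of 6 (60.9%), and over those shared by all 12 libraries 2 of 5. A count without a share cannot be set against all genes. The site counts at 80 μM are no test, as all these sites had entered through the HF-labelled total pair alone. That choice fixed their direction and favoured a call. In polysome against total at 80 μM 5 were called, where 65.7% of all sites were. At a coverage of at least 50 or a level of at least 0.2, 1 site was left to test and was called. In total 80 against 10 μM 4 were called, where 94.2% of all sites were. There 0 were called at a coverage of at least 50 and 1 at a level of at least 0.2, where 0 and 1 sites were left to test.

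The opposite sign appeared as follows (log2). Over cytosines shared by all 12 libraries, polysome minus total was -0.53 (1.5 μM), -0.74 (10 μM) and -0.64 (both) for Fabp7 and -0.15 (both) for Vim, Nes in total 80 against 10 μM was -0.94, and the fraction difference of Hes1 at 80 against 10 μM was -0.83. Over cytosines shared by the libraries compared, Fabp7 was -0.43 (10 μM) and -0.49 (both), Vim -0.074 (both), Hes1 0.41 (10 μM), Vim in total 80 against 10 μM -0.24 and the fraction difference of Hes1 -0.75. With mean coverage, Nes in total 80 against 10 μM was -0.67. The cause of the change was not tested.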
